A study of Rattus norvegicus with 84 samples.

Results

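The 10 genes described here mark astrocytes and reactive gliosis. They were chosen by name from the mRNA count table, as the rows for Gfap, Vim, Nes, Aqp4, Gja1, Slc1a2, Slc1a3, Glul, Aldoc and S100b. The table held 26637 rows, of which 18782 were annotated genes. All 10 genes passed the low-count filter in brain EVs, among 14515 genes tested. In plasma EVs 8 of the 10 passed, among 14720 genes tested, and Aqp4 and Slc1a2 did not.

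Astrocytes take up glutamate and potassium released by neurons, supply neurons with glutamine and lactate, and cover brain vessels with end-feet rich in water channels. After ischemia, astrocytes around the infarct become hypertrophic, build up intermediate filaments and form the border of the glial scar, a response called reactive gliosis. Extracellular vesicles (EVs) are membrane particles shed by cells, and carry part of the RNA of the cell that released them.

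The rats were male, wild-type Sprague-Dawley animals of 8 to 12 weeks. Healthy rats had no stroke. All other rats had 90 min of transient occlusion of the right middle cerebral artery (tMCAO) and an injection into the common carotid artery on day 3. The injection held human neural stem cells (hNSCs) from 1 human fetal line in glucose buffer, or saline alone. Rats given saline are called control. Between hNSCs and control rats, the cells and their buffer cannot be told apart. No group had sham surgery or saline without stroke. The stroke effect below means control against healthy rats, where stroke, surgery and injection cannot be told apart. Brains and plasma were collected 4, 10 and 31 days after stroke, which was 1, 7 and 28 days after the injection. Each of the 7 groups (healthy, 3 control and 3 hNSCs) had 3 rats, so 21 rats gave 42 mRNA libraries, a brain and a plasma library for each rat. Brain and plasma libraries were paired by the animal number in the labels. Brain EVs were extracted from a small piece of tissue of the right hemisphere, the injured side in stroke rats. The sources used here do not state how much infarct, border or intact tissue a piece held. In the labels the blood EVs are called plasma, and serum in the extraction text. The edgeR p-values rest on the spread among rats within groups, pooled over all groups of a fit, each of 3 rats.

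Total counts (in units of 1e6) were 13.2 to 37.7 in brain libraries and 11.9 to 49.8 in plasma libraries. Counts on annotated genes, in the same unit, were 0.569 to 15.6 in brain, lowest in the hNSCs 10 d replicate 3 library, and 6.36 to 31.0 in plasma. The annotated share of brain counts differed by group. It was 7.11 to 20.9% in healthy, 22.0 to 25.3% in control 4 d, 11.3 to 13.4% in control 10 d and 30.3 to 43.0% in control 31 d libraries, and 10.6 to 20.6%, 3.18 to 16.9% and 29.9 to 51.9% in the hNSCs groups at the same days. Levels of a gene between libraries are given as CPM, the count of a gene over the annotated total of its library after TMM normalization times 1e6, and levels between genes as TPM, which divides by transcript length. A count of 0 is compatible with up to 3 counts. Before the TMM factors were applied, this was 0.193 to 5.27 CPM in brain and 0.0967 to 0.472 CPM in plasma libraries. This floor covers counting error only, since the libraries had no molecular identifiers. In vesicles from bulk tissue, fewer vesicles from astrocytes and less RNA in each of them cannot be told apart. A gene was called where the quasi-likelihood test of edgeR gave more than a 1.5-fold change with an adjusted p (Benjamini-Hochberg) below 0.05.

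Gfap, Vim and Glul were the members called in the brain. Their promoter sequences, the 250 bases upstream of the RefSeq transcription start in assembly GRCr8, are shown here because these members were called. Capitals mark matches, on either strand, to 5 motifs: AP-1, searched as TGANTCA, STAT, searched as TTCNNNGAA, SP1, searched as GGGCGG, the CCAAT box, searched by those letters, and TATA, searched as TATAAA. Gfap lies on the minus strand at chr10:88361662-88361911, Vim on the plus strand at chr17:81577011-81577260, and the 2 starts of Glul on the plus strand at chr13:68519250-68519499 and chr13:68575816-68576065.
Gfap: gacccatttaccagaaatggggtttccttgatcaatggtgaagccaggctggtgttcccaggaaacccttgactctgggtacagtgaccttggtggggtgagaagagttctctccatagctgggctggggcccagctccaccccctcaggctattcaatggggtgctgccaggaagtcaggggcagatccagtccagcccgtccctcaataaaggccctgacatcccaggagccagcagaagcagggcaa
Vim: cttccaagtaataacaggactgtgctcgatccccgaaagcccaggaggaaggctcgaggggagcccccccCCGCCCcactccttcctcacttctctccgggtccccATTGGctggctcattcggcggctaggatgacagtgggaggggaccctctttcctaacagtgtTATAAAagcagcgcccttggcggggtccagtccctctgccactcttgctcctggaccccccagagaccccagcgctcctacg
Glul start 1: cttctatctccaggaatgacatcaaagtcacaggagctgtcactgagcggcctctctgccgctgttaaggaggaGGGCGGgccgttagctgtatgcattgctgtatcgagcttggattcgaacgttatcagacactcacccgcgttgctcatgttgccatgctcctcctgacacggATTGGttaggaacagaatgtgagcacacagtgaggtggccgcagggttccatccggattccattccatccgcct
Glul start 2: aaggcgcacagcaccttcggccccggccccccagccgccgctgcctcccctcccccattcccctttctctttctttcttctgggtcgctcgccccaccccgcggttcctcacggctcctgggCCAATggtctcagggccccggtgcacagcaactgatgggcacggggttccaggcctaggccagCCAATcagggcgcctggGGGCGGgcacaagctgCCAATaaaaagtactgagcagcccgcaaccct
The 250 bases of Gfap held none of the 5 motifs. Those of Vim held SP1, CCAAT and TATA matches, and both Glul windows held SP1 and CCAAT. Of all 33469 promoter windows of this length, 30.5% held SP1, 34% CCAAT, 12.9% TATA, 6.34% AP-1 and 7.67% STAT. The only AP-1 match among the 15 windows of the 10 members was in Gja1. A match is a description of the letters and not evidence of binding.

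In healthy brain EVs Gfap (688 ± 129 TPM, mean ± SD, n = 3), S100b (662 ± 127 TPM) and Glul (608 ± 249 TPM) stood highest, followed by Slc1a2 (461 ± 93.5 TPM) and Aldoc (413 ± 88.8 TPM). Vim (190 ± 88.5 TPM), Gja1 (128 ± 20.9 TPM), Slc1a3 (99.7 ± 22.3 TPM), Aqp4 (66.8 ± 55.6 TPM) and Nes (14.9 ± 10.2 TPM) were lower. Neighbours in this order overlapped in their libraries, with the exception of Aldoc and Vim. Over all 21 brain libraries Gfap had a median of 2974 TPM and ranked 8th among the 18782 annotated genes, Vim ranked 37th, and Nes ranked 7079th. Gfap and S100b, near each other in healthy brain, were far apart over all libraries, where S100b had a median of 877 TPM.

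**Figure D1:**
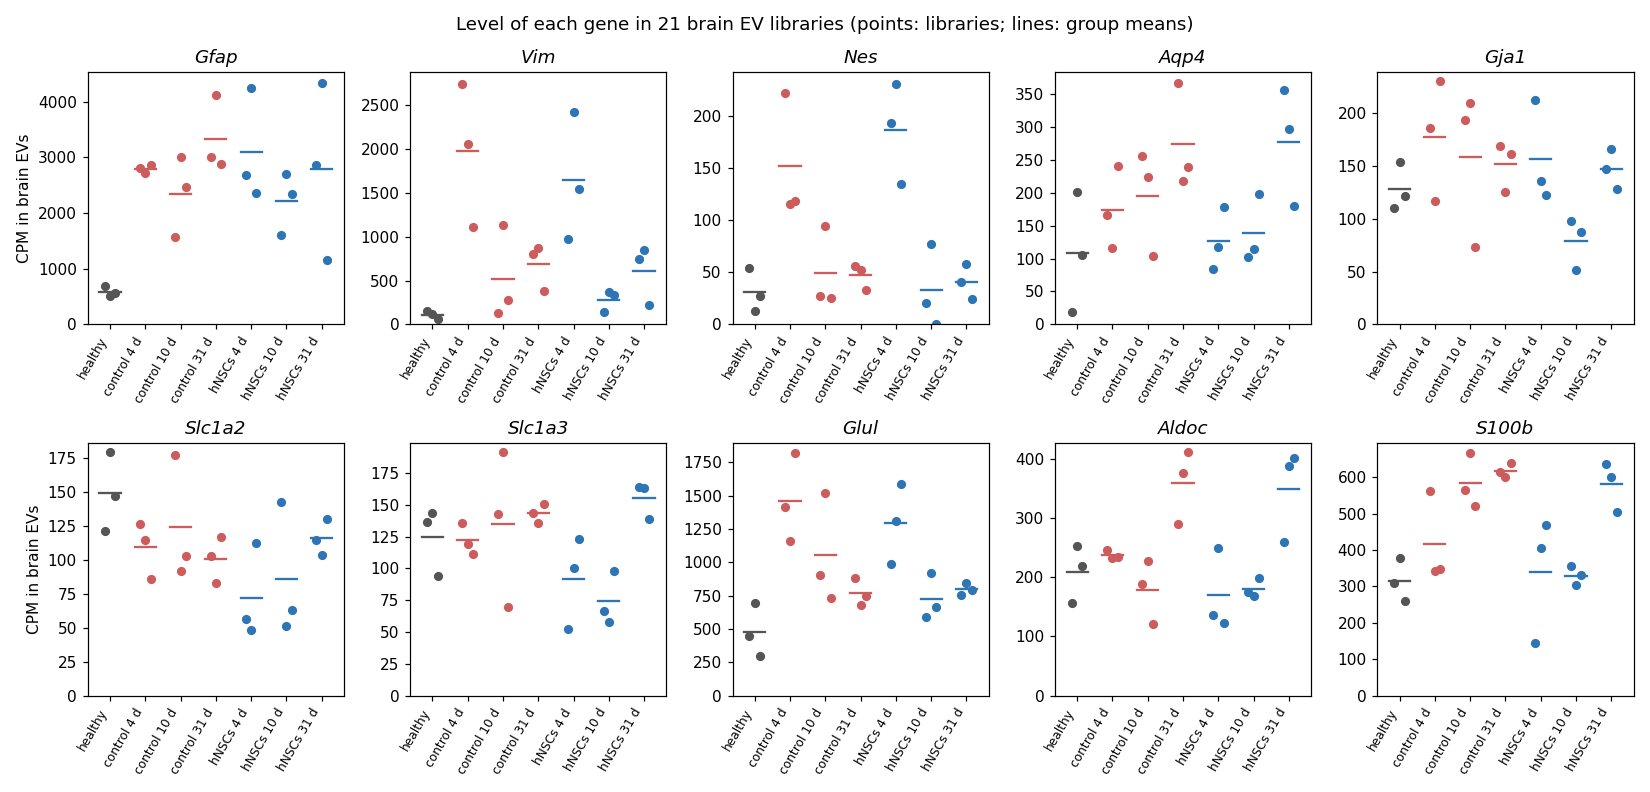
CPM of each member in every brain EV library on a linear axis that starts at 0, 1 panel a gene, with points for the 3 rats of a group and a line at the group mean. The 3 healthy libraries sit below all 18 stroke libraries for Gfap, while Slc1a2 and Gja1 overlap between most groups.

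Gfap encodes the intermediate filament protein of astrocytes and is the classical marker of gliosis. In brain EVs it was 695, 504 and 571 CPM in the healthy rats. It was 2812, 2715 and 2865 CPM in control 4 d rats, 1563, 3014 and 2464 CPM in control 10 d rats, and 3003, 4120 and 2874 CPM in control 31 d rats. Each of the 9 control libraries was above each healthy library. Against healthy rats Gfap rose 4.74-fold at 4 d (log2 2.25 ± 0.36 SE, edgeR adjusted p = 0.0110), 3.98-fold at 10 d (1.99 ± 0.35, adjusted p = 0.0129) and 5.65-fold at 31 d (2.50 ± 0.36, adjusted p = 0.00591). Averaged over the days the change was 2.25 ± 0.32 on the log2 scale (adjusted p = 0.00550). At 31 d Gfap was the only gene called among the 14515 tested in the brain.

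Vim encodes vimentin, a filament protein of immature and reactive astrocytes that is also made by endothelial, fibroblast and immune cells. It was 152, 118 and 56.6 CPM in healthy, 2747, 2059 and 1114 CPM in control 4 d, 124, 1138 and 274 CPM in control 10 d and 806, 875 and 383 CPM in control 31 d rats. The 4 d and 31 d libraries were all above healthy, and 1 of the 10 d libraries was within the healthy range. Vim rose 18.2-fold at 4 d (log2 4.19 ± 0.69, adjusted p = 0.0110), the largest change among the members, and 8.18-fold over all days (3.03 ± 0.60, adjusted p = 0.0329). The values at 10 d (2.24 ± 0.63, adjusted p = 0.118) and 31 d (2.67 ± 0.64, adjusted p = 0.262) did not pass.

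Nes encodes nestin, a filament protein of neural stem cells that is also made by reactive astrocytes and new vessels. Its level was 53.9, 13.3 and 27.3 CPM in healthy and 222, 116 and 118 CPM in control 4 d brain EVs. The 4 d libraries were all above healthy, but the difference was not called (log2 2.29 ± 0.79, adjusted p = 0.162). At 10 d the libraries ranged from 25.3 to 94.7 CPM and at 31 d from 32.6 to 55.6 CPM, and both overlapped healthy.

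Glul encodes glutamine synthetase, which turns glutamate and ammonia into glutamine. It was 444, 694 and 299 CPM in healthy, 1415, 1157 and 1819 CPM in control 4 d, 908, 1519 and 734 CPM in control 10 d and 885, 678 and 747 CPM in control 31 d rats. All libraries at 4 d and 10 d were above healthy, and those at 31 d overlapped it. The rise was called at 4 d only (3.05-fold, log2 1.61 ± 0.31, adjusted p = 0.0144). It was 1.14 ± 0.30 at 10 d (adjusted p = 0.0946), 0.68 ± 0.30 at 31 d (adjusted p = 0.608) and 1.14 ± 0.26 over all days (adjusted p = 0.0628).

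Slc1a2 and Slc1a3 encode the glutamate transporters GLT-1 and GLAST, which clear glutamate from the synapse. Slc1a2 was 121, 179 and 147 CPM in healthy, 127, 115 and 85.8 CPM in control 4 d, 177, 91.9 and 103 CPM in control 10 d and 103, 82.7 and 117 CPM in control 31 d brain EVs. All 31 d libraries were below healthy, beside 6.39% of all genes that were lower without overlap, but none of the differences was called. They were -0.45 ± 0.41, -0.27 ± 0.41 and -0.57 ± 0.41 on the log2 scale at 4, 10 and 31 d, with edgeR adjusted p of 0.782, 0.941 and 1.00. On log2(FPKM + 1), a scale set by all reads and not by annotated reads, the Slc1a2 difference at 31 d was +1.29 (limma adjusted p = 0.0144), so its direction there depends on the scale. Slc1a3 ranged from 94.0 to 144 CPM in healthy and from 69.8 to 192 CPM in the 9 control libraries, and its differences were -0.03, 0.11 and 0.20 on the log2 scale.

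Aqp4 encodes the water channel of astrocyte end-feet and Gja1 encodes connexin 43, which forms gap junctions between astrocytes. Aqp4 was 19.4, 201 and 106 CPM in healthy rats, 167, 116 and 241 CPM at 4 d, 256, 223 and 104 CPM at 10 d and 367, 219 and 239 CPM at 31 d. All 31 d libraries were above healthy without a call (log2 1.33 ± 0.53, adjusted p = 0.562). Gja1 was 110, 154 and 122 CPM in healthy and 73.2 to 230 CPM in control rats, with overlap at each day and log2 differences of 0.47, 0.31 and 0.24.

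Aldoc encodes aldolase C, a glycolytic enzyme of astrocytes and Purkinje cells, and S100b encodes a calcium-binding protein of astrocytes and some oligodendrocytes. S100b was 310, 379 and 260 CPM in healthy, 561, 341 and 348 CPM at 4 d, 564, 667 and 520 CPM at 10 d and 615, 599 and 639 CPM at 31 d. The libraries at 10 d and 31 d were all above healthy, with differences of 0.88 ± 0.31 (adjusted p = 0.245) and 0.97 ± 0.31 (adjusted p = 0.483) that were not called. Aldoc was 157, 253 and 219 CPM in healthy and 290, 376 and 412 CPM at 31 d, without overlap (0.78 ± 0.30, adjusted p = 0.558). At 4 d and 10 d Aldoc overlapped healthy, with differences of 0.18 and -0.23.

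Counted together, 3 of the 10 members rose at 4 d, 1 at 10 d, 1 at 31 d and 2 over all days, and none fell. Over all genes tested in the brain, 0.73% rose at 4 d (106 genes), 0.537% at 10 d (78), 0.00689% at 31 d (1) and 0.158% over all days (23), while 0.131%, 0.0344%, 0% and 0.0276% fell. The healthy and control libraries did not overlap, with control higher, for 4 members at 4 d, 3 at 10 d, 5 at 31 d and 1 over all days, beside 13.9%, 7.05%, 18.9% and 2.62% of all genes. The median log2 difference of the members was 0.57, 0.74 and 0.73 at 4, 10 and 31 d, beside 0.05, 0.00 and 0.24 over all genes. At 31 d, 1036 genes had an unadjusted p under 0.05, and 6 of them were members.

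All 4 comparisons share the same 3 healthy libraries, and the calls rest on them. Without healthy replicate 1, and likewise without replicate 3, none of the 7 calls remained, and without replicate 2, 3 of the 7 were lost. Gfap at 10 d was also lost without control 10 d replicate 2 (adjusted p = 0.0868), Glul at 4 d without control 4 d replicate 1 (adjusted p = 0.0644), and Vim over all days without control 4 d replicate 1, control 4 d replicate 2 or control 31 d replicate 2 (adjusted p = 0.0640, 0.0580 and 0.0534). The sizes moved little. With any 1 library left out, the log2 change of Gfap was 2.11 to 2.35 at 4 d, 1.79 to 2.23 at 10 d and 2.31 to 2.59 at 31 d, that of Vim 3.84 to 4.47 at 4 d, and that of Glul 1.34 to 1.94 at 4 d.

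**Figure D2:**
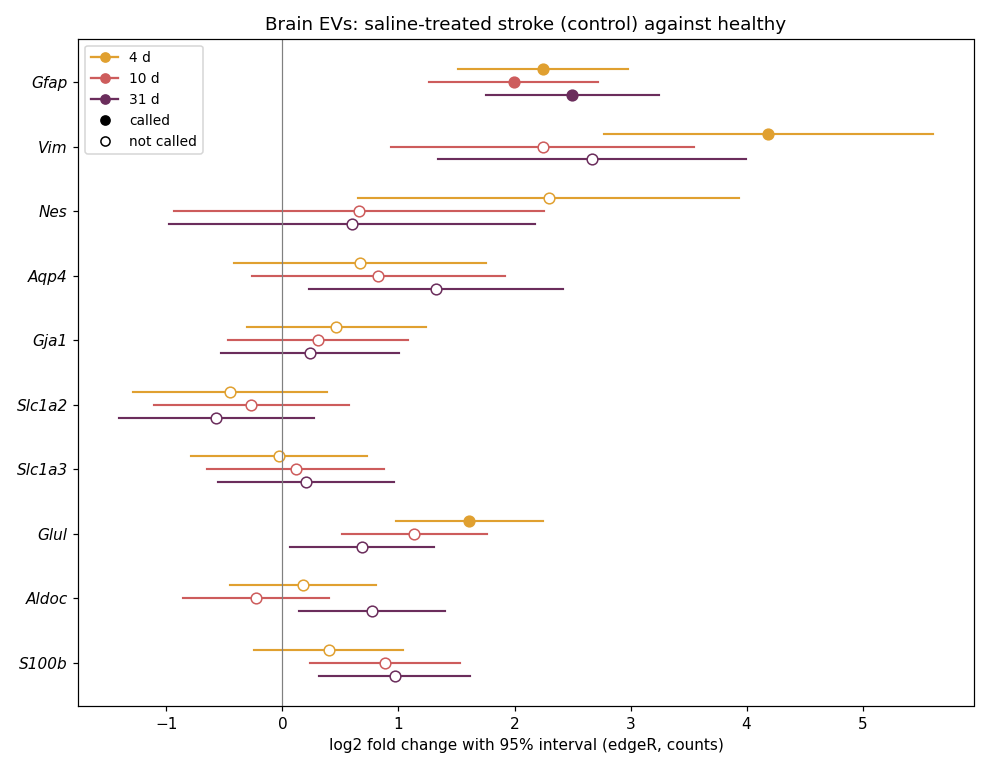
Log2 change of each member in brain EVs, control against healthy rats, at 4, 10 and 31 d after stroke, with points for the edgeR estimate and bars for the 95% interval. Filled points mark calls, which are Gfap at each day and Vim and Glul at 4 d.

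Since the annotated share of brain counts moved with the groups, its relation to each member was measured over the 21 brain libraries. As a description, Pearson's r with the log2 level was 0.714 for Aldoc, 0.604 for Aqp4, 0.588 for S100b, 0.530 for Slc1a3, 0.356 for Gfap, 0.317 for Vim and 0.0586 for Glul. The libraries of 31 d had the highest shares, so the 31 d differences of Aldoc, Aqp4 and S100b come with a higher annotated share, whose part in them was not tested. The ratio of Gfap to Slc1a2 counts within a library, a pair chosen after its values were seen, is given as a description. Its log2 was 1.99 ± 0.51 in healthy rats, 4.70 ± 0.32 in control 4 d, 4.25 ± 0.99 in control 10 d and 5.04 ± 0.53 in control 31 d rats (SD, n = 3 each). No control library overlapped the healthy range of 1.49 to 2.51.

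Transplantation was compared within each day. No member was called in brain EVs of hNSCs rats against control rats at 4, 10 or 31 d or over the days, and edgeR called no other gene (0% of 14515). At an unadjusted p under 0.05, 1093 genes passed at 4 d, 1945 at 10 d, 13 at 31 d and 1115 over the days, of which 0, 3, 0 and 1 were members. DESeq2 called 220, 636, 0 and 342 genes in the same comparisons and limma on log2(FPKM + 1) called 0 genes in each, and neither tool called a member.

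Gfap in hNSCs rats was 2680, 4245 and 2366 CPM at 4 d, 1598, 2709 and 2347 CPM at 10 d and 2860, 4343 and 1147 CPM at 31 d, which overlapped the control rats at each day. The lowest stroke library for Gfap was hNSCs 31 d replicate 3, still above the highest healthy library. The log2 difference from control was 0.15 (95% interval -0.55 to 0.85), -0.08 (-0.78 to 0.62) and -0.26 (-0.96 to 0.44). Averaged over days it was -0.06 ± 0.20, with an interval of -0.47 to 0.34.

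At 10 d the hNSCs rats had lower values for S100b, Gja1 and Slc1a3. S100b was 355, 303 and 332 CPM against 564, 667 and 520 CPM in control rats, without overlap (log2 -0.82 ± 0.31, adjusted p = 0.326). Of all genes, 7.06% were lower without overlap in this comparison. Gja1 was 98.0, 51.5 and 87.4 CPM against 194, 210 and 73.2 CPM (-1.01 ± 0.38, adjusted p = 0.326), and Slc1a3 66.8, 57.7 and 98.0 CPM against 143, 192 and 69.8 CPM (-0.87 ± 0.38, adjusted p = 0.336), both with overlap. Over all genes the median difference at this day was -0.34, and that of the members -0.55. The hNSCs 10 d group held the library with the fewest annotated counts, in which Nes had 0 counts.

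Vim was 979, 2425 and 1542 CPM at 4 d, 136, 365 and 339 CPM at 10 d and 744, 849 and 226 CPM at 31 d in hNSCs rats. Its average difference from control was -0.44 ± 0.35 (interval -1.16 to 0.28).

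The other members overlapped control rats at each day. Glul in hNSCs rats was 991, 1314 and 1590 CPM at 4 d, 589, 921 and 663 CPM at 10 d and 756, 842 and 796 CPM at 31 d, which gave differences of -0.17, -0.54 and 0.05 from control. Slc1a2 was 56.3, 48.1 and 112 CPM at 4 d, 143, 51.5 and 63.3 CPM at 10 d and 115, 104 and 130 CPM at 31 d, with differences of -0.59, -0.52 and 0.20. The 2 lowest Slc1a2 libraries of all brain libraries, 48.1 and 51.5 CPM, came from hNSCs rats. Aqp4 was 84.2, 118 and 179 CPM at 4 d, 103, 114 and 199 CPM at 10 d and 357, 297 and 180 CPM at 31 d. Aldoc was 137, 250 and 122 CPM at 4 d, 174, 169 and 199 CPM at 10 d and 260, 388 and 402 CPM at 31 d. Aldoc in hNSCs 31 d rats was above all 3 healthy libraries. Nes was 194, 231 and 134 CPM at 4 d, above all healthy libraries, and 40.5, 58.1 and 23.9 CPM at 31 d, overlapping them.

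All 10 members had an average below 0, as had most of all genes tested, with a median of -0.31 beside -0.20 over all genes. The widest interval was that of Nes (-1.06 to 0.75) and the narrowest those of Glul (-0.58 to 0.14) and Aldoc (-0.53 to 0.19). The differences of the hNSCs effect between days called no gene (0%) and no member, with 1252, 614 and 905 genes at an unadjusted p under 0.05 and no member among them. For the ratio of Gfap to Slc1a2, hNSCs rats were 0.22 higher on the log2 scale than control rats of the same day.

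**Figure D3:**
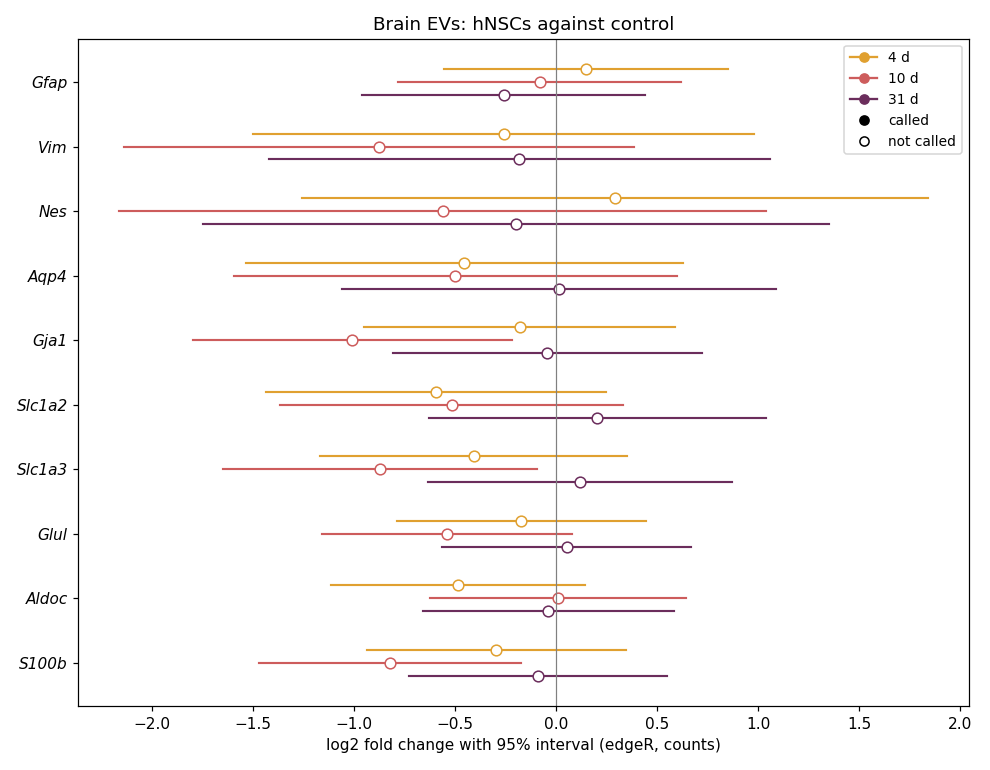
Log2 difference of each member in brain EVs between hNSCs and control rats at 4, 10 and 31 d after stroke, with points for the edgeR estimate and bars for the 95% interval. No point is a call, and most intervals include 0, apart from those of S100b, Gja1 and Slc1a3 at 10 d.

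The hNSCs groups were also set against the healthy rats, a comparison added after the data were examined that shares the healthy libraries with those above. At 4 d Gfap (log2 2.39 ± 0.36, adjusted p = 0.00183), Vim (3.93 ± 0.68, adjusted p = 0.00431) and Glul (1.44 ± 0.30, adjusted p = 0.0143) rose, beside 1.65% of all genes. Gfap alone among the members rose at 10 d (1.91 ± 0.35, adjusted p = 0.0300) and 31 d (2.24 ± 0.36, adjusted p = 0.0139), beside 0.0413% and 0.0138% of genes. The calls of Gfap and Vim at 4 d held with each library left out. That of Glul was lost without healthy replicate 1 or 3 or hNSCs 4 d replicate 3, with adjusted p up to 0.0964. Gfap at 10 d and 31 d was lost without any 1 of the healthy libraries, with adjusted p up to 0.156 at 10 d and 0.191 at 31 d. It was also lost at 10 d without hNSCs 10 d replicate 2 or 3 (adjusted p = 0.178 and 0.0652) and at 31 d without hNSCs 31 d replicate 1 or 2 (adjusted p = 0.135 and 0.157).

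Among control rats the days were compared with each other. No member was called, beside 0% of genes for 10 d against 4 d, 0.248% for 31 d against 4 d and 0.152% for 31 d against 10 d. Of the members, 2, 3 and 1 had an unadjusted p under 0.05, beside 898, 1379 and 1324 of all 14515 genes. Vim was lower at 31 d than at 4 d in every library, by -1.52 ± 0.61 (adjusted p = 0.335), as were Glul (-0.93 ± 0.30, adjusted p = 0.276) and Nes (-1.69 ± 0.77, adjusted p = 0.454), beside 10.1% of all genes that were lower without overlap. Gfap at 31 d was 0.25 ± 0.34 above 4 d. Aldoc was 1.00 ± 0.31 higher at 31 d than at 10 d, without overlap (adjusted p = 0.369), beside 16.1% of all genes that were higher without overlap.

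Other genes of astrocytes and gliosis were examined by lists, which were chosen with earlier results of these data known. Among 15 other astrocyte markers no gene was called at 4 d, and the summed level of the list was 3983 to 4810 CPM in healthy and 3969 to 4076 CPM in control 4 d brain EVs. Their median log2 difference was 0.22 at 4 d, 0.00 at 10 d and 0.39 at 31 d, close to that of all genes. Aldh1l1, a folate enzyme used as a general astrocyte marker, was 74.0, 63.8 and 129 CPM in healthy and 27.9, 60.2 and 43.1 CPM in control 4 d rats (log2 -1.03 ± 0.56, adjusted p = 0.429). Sox9, an astrocyte transcription factor, was 66.8, 82.6 and 65.3 CPM and 270, 216 and 222 CPM in the same groups, without overlap (1.72 ± 0.46, adjusted p = 0.0748). The call on this list was Cst3, the protease inhibitor cystatin C, at 10 d (2.17 ± 0.50, adjusted p = 0.0477), with 206, 1380 and 523 CPM against 171, 176 and 123 CPM in healthy rats.

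Of 11 genes that mark reactive astrocytes in general 9 were tested, and Hspb1, a small heat shock protein, was called at 4 d (adjusted p = 0.0214). It had 28.3, 19.1 and 39.2 CPM in control 4 d rats and 0 counts in each healthy library, which makes it at least 90.9-fold higher against a floor of 3 counts over the healthy group. With no healthy counts, Hspb1 passed the low-count filter only through libraries of the other groups, so its call adds no support for a rise of the list. Of 9 genes of the A1 class C3, the complement component, rose at 10 d, from 0, 5.54 and 2.53 CPM in healthy to 37.1, 175 and 253 CPM (5.66 ± 1.28, adjusted p = 0.0460). None of the 8 tested genes of the A2 class was called at any day.

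In the signaling list of 13 genes Tgfb1, the ligand TGF-beta 1, and its receptor Tgfbr1 rose at both 4 d and 10 d. Tgfb1 was 0, 2.21 and 2.53 CPM in healthy and 54.0, 58.4 and 30.1 CPM in control 4 d rats (4.76 ± 1.08, adjusted p = 0.0329). Tgfbr1 was 15.1, 26.4 and 18.0 CPM and 242, 204 and 222 CPM (3.47 ± 0.68, adjusted p = 0.0155). Stat3, the transcription factor that gliosis cytokines activate, was above healthy in every control 4 d library without a call (1.32 ± 0.43, adjusted p = 0.140). None of 9 end-feet genes, 8 tested genes of the glutamate-glutamine cycle, 5 partners of the filaments or 7 neural progenitor genes was called at any day. The median of the glutamate-glutamine list was -0.52 at 4 d, beside 0.05 over all genes.

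**Figure D4:**
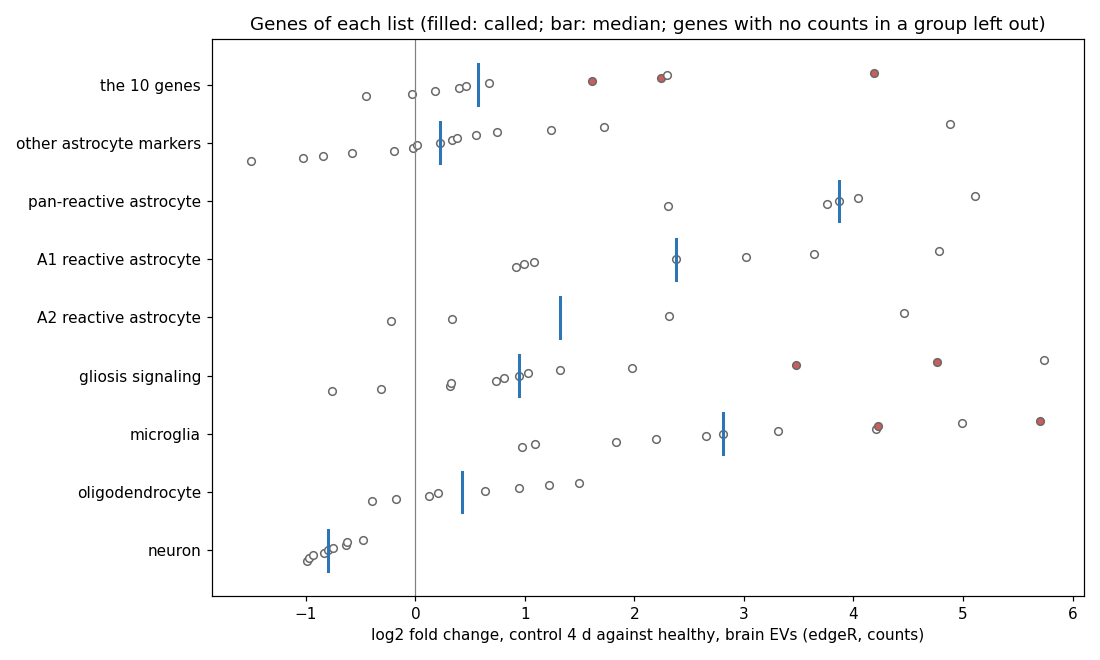
Log2 difference between control 4 d and healthy rats in brain EVs for the genes of each list, 1 row for each of 9 lists, with a point for each tested gene that had counts in both groups, filled where called, and a bar at the median. The other astrocyte markers lie around 0, the reactive, signaling and microglia genes lie mostly to the right, and all neuron genes lie to the left of 0.

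Genes of other cell types moved with the same groups. The summed level of the 12 microglia markers was 83.3 to 128 CPM in healthy, 636 to 1369 CPM in control 4 d, 252 to 2304 CPM in control 10 d and 252 to 499 CPM in control 31 d libraries. C1qb and C1qc, subunits of complement C1q, rose at 4 d, and C1qa, C1qb, C1qc and Csf1r at 10 d. C1qc was 0, 6.64 and 4.22 CPM in healthy and 319, 212 and 113 CPM in control 4 d rats (5.71 ± 0.96, adjusted p = 0.0112). Of the 10 leukocyte genes 3 were tested, and Ptprc, the pan-leukocyte antigen CD45, rose at 4 d (4.28 ± 0.81, adjusted p = 0.0142) and 10 d (4.03 ± 0.80, adjusted p = 0.0249), and the lysozyme gene Lyz2 at 4 d (3.99 ± 0.89, adjusted p = 0.0303), while Itgb2 was called at 10 d with overlap (adjusted p = 0.0477). In healthy brain EVs 8 of these 10 genes had 0 counts. Itgb2 was among them and passed the low-count filter only through the other groups, so these calls are not a test of the leukocyte list. The summed level of the 9 neuron markers was 4982 to 5854 CPM in healthy, 2142 to 3637 CPM in control 4 d and 4005 to 5417 CPM in control 31 d libraries, with 9 of 9 differences negative at 4 d and none called. Vim is also made by microglia and vascular cells, and the part of these cells in its rise was not tested. The summed level of 8 endothelial and pericyte genes was 114 to 191 CPM in healthy and 252 to 370 CPM in control 4 d libraries.

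The calls on these lists at 4, 10 and 31 d and over all days, 19 in all, rest on the same healthy libraries. Without healthy replicate 1 or 3 all 19 were lost, and without healthy replicate 2, 18 were. Without control 10 d replicate 2, 10 of the 12 calls at 10 d or over all days were lost, Cst3, C3, Tgfb1 and Tgfbr1 among them. Without control 4 d replicate 1, 8 of the 9 calls at 4 d or over all days were lost, all but that of C1qc at 4 d. No list gene was called between hNSCs and control rats in the brain.

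Members were also compared with each other over the 21 brain libraries on the log2(CPM + 1) scale. The 45 pairs had a median Pearson's r of 0.31, from -0.60 for Gfap and Slc1a2 to 0.80 for Vim and Glul, and 11 pairs were above 0.5. With group means removed the median was 0.20. The points share the group structure and, within a library, its depth. The 5 genes with the pattern most like Gfap among 14505 others were Itpkb (r = 0.87), an inositol phosphate kinase, Cmklr1 (0.85), the chemerin receptor, Ptprc (0.83), Ssh2 (0.83), a cofilin phosphatase, and Mvp (0.82), the major vault protein. With group means removed, r was 0.76 for Itpkb, 0.75 for Cmklr1, 0.30 for Ptprc, 0.50 for Ssh2 and 0.67 for Mvp. Those most like Slc1a2 were LOC102555635 (0.86), Kitlg (0.83), the ligand of the Kit receptor, Cntn3 (0.83), a contactin, LOC100910708 (0.83) and Cog6 (0.83), a subunit of a Golgi complex. Their r with group means removed was 0.82, 0.88, 0.87, 0.76 and 0.76 in the same order.

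In plasma EVs the members split by level. Vim had a median of 1161 TPM, the 109th of the annotated genes, and Glul of 379 TPM, the 231st. Gja1 followed at 11.8 TPM, Slc1a3 at 4.29 TPM, Gfap at 3.44 TPM and Nes at 1.37 TPM. Of 21 plasma libraries Aqp4 had 0 counts in 20, Slc1a2 in 19, Aldoc in 16, S100b in 10, Slc1a3 in 6 and Gfap in 2. Neuron markers were likewise at or near 0 in plasma, with 0 to 23.3 CPM for all 9 genes together.

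No member was called in any plasma comparison. Over all genes 0.0679% were called for control 4 d against healthy, and 0% for 10 d, 31 d and all days. For hNSCs against control rats 0.00679% were called at 4 d and 0% at 10 d, at 31 d and over the days. Between control days 0.387% were called for 10 d against 4 d, 0.17% for 31 d against 4 d and 0% for 31 d against 10 d. For the hNSCs effect between days the shares were 0.00679% for 10 d against 4 d, 0.00679% for 31 d against 4 d and 0% for 31 d against 10 d. At an unadjusted p under 0.05, a member passed in 1 plasma comparison each for control 4 d and control 10 d against healthy and for hNSCs against control at 4 d and at 31 d, where 862, 825, 580 and 1261 genes passed in all. It was 2 members for control 10 d against 4 d and 1 for the hNSCs effect at 31 d against 4 d, of 1104 and 1466 genes. DESeq2 called 1 member each for control 4 d and 10 d against healthy and for hNSCs against control over the days, 2 for hNSCs against control at 31 d, 2 between control days and 2 for the hNSCs effect between days.

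Plasma Gfap was 2.38, 8.37 and 1.70 CPM in healthy, 29.9, 0.542 and 0 CPM in control 4 d, 2.87, 31.8 and 16.6 CPM in control 10 d and 5.64, 9.77 and 21.2 CPM in control 31 d rats. The groups overlapped at each day, and rats of 1 group differed by more than the groups did. Plasma Vim was 1457, 1124 and 2073 CPM in healthy and 2190, 10118 and 1744 CPM in control 4 d rats, with control 4 d replicate 2 above every other plasma library. Among all others the plasma level of Vim ranged from 1124 to 3044 CPM. Its difference was 1.59 ± 0.48 with overlap (edgeR adjusted p = 0.489, DESeq2 adjusted p = 0.0119). It rested on control 4 d replicate 2, without which the difference was 0.34 (edgeR adjusted p = 1.00).

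Plasma Glul was 564, 398 and 753 CPM in healthy rats. It was 434, 530 and 547 CPM in control 4 d and 808, 991 and 1092 CPM in control 10 d rats, and the 10 d libraries were all above healthy (0.75 ± 0.32, adjusted p = 0.750). Of all genes tested in plasma, 3.64% were higher without overlap at 10 d. Plasma Glul was 1726, 1274 and 1583 CPM in hNSCs 31 d and 694, 643 and 1054 CPM in control 31 d rats, without overlap. The difference was 0.94 ± 0.32 on the log2 scale (edgeR adjusted p = 0.522, DESeq2 adjusted p = 0.0176), beside 4.6% of all genes that were higher without overlap. The summed level of 7 red-cell genes was 194655 to 306215 CPM in hNSCs 31 d and 55828 to 151494 CPM in control 31 d plasma libraries, and their part in the Glul difference was not tested. Plasma Gja1 ranged from 5.26 to 129 CPM, Slc1a3 from 0 to 53.8 CPM, Nes from 0.371 to 40.8 CPM, S100b from 0 to 9.13 CPM and Aldoc from 0 to 7.95 CPM. Slc1a2 had 167 and 84 counts in the plasma of control 4 d replicates 1 and 3 and 0 in all others, and Aqp4 had 3 counts in hNSCs 4 d replicate 1.

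Brain and plasma EVs were compared over the 21 rats among 16945 genes, with 29% of them called higher in brain and 25.3% lower. Of the members 8 were higher in brain and Vim was lower. The average CPM given here use the factors of the fit of both tissues, and differ from the CPM above, which were normalized within each tissue. Gfap averaged 2126 CPM in brain and 12.9 CPM in plasma and was higher in brain in 21 of 21 rats (log2 7.31 ± 0.61, adjusted p = 2.53e-12). S100b averaged 402 and 3.57 CPM (7.78 ± 0.82, adjusted p = 9.64e-10), Slc1a3 107 and 17.9 CPM (2.68 ± 0.69, adjusted p = 0.00113), and Nes 64.7 and 12.4 CPM (2.21 ± 0.44, adjusted p = 4.96e-05). On log2(FPKM + 1) neither Nes (0.13, limma adjusted p = 0.276) nor Slc1a3 (0.46, adjusted p = 0.0243, under the 1.5-fold limit) was called, and Nes was not called on log2(FPKM + 0.1) either (0.28, adjusted p = 0.386). Without the rat of control 10 d replicate 2 the difference of Nes was 1.45, and without that of hNSCs 10 d replicate 3 the difference of Slc1a3 was 4.17, both called. Aldoc (215 and 1.19 CPM), Slc1a2 (95.3 and 0.612 CPM) and Aqp4 (166 and 0.0111 CPM) were also called, with most plasma libraries at 0. Gja1 averaged 124 and 44.9 CPM (1.502 ± 0.257, adjusted p = 5.52e-06), but its sign turned on FPKM, which divides by all reads, including those outside annotated genes. With 1 rat left out, the difference of Gja1 was 0.85 to 1.63 and was called each time, lowest without that of hNSCs 4 d replicate 1. Vim averaged 715 CPM in brain and 2674 CPM in plasma, higher in plasma in all 21 rats (-2.35 ± 0.24, adjusted p = 2.14e-10). Glul averaged 802 and 996 CPM and was not called (-0.27 ± 0.13, adjusted p = 0.0899), and on log2(TPM + 1) the difference was 1.504 in the other direction. With 1 rat left out, Glul was called lower in brain in 16 of 21 fits, by up to -0.93, and was not called without any 1 of the 3 hNSCs 10 d rats or hNSCs 31 d replicates 1 and 3.

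The stroke effect at 4 d differed between the tissues for 0.159% of these genes. No member with counts in each of the groups compared was among them. Slc1a2 did not pass the plasma filter and had 0 counts in all 3 healthy and 1 of the 3 control 4 d plasma libraries, so its test cannot tell whether the effect differs.

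**Figure D5:**
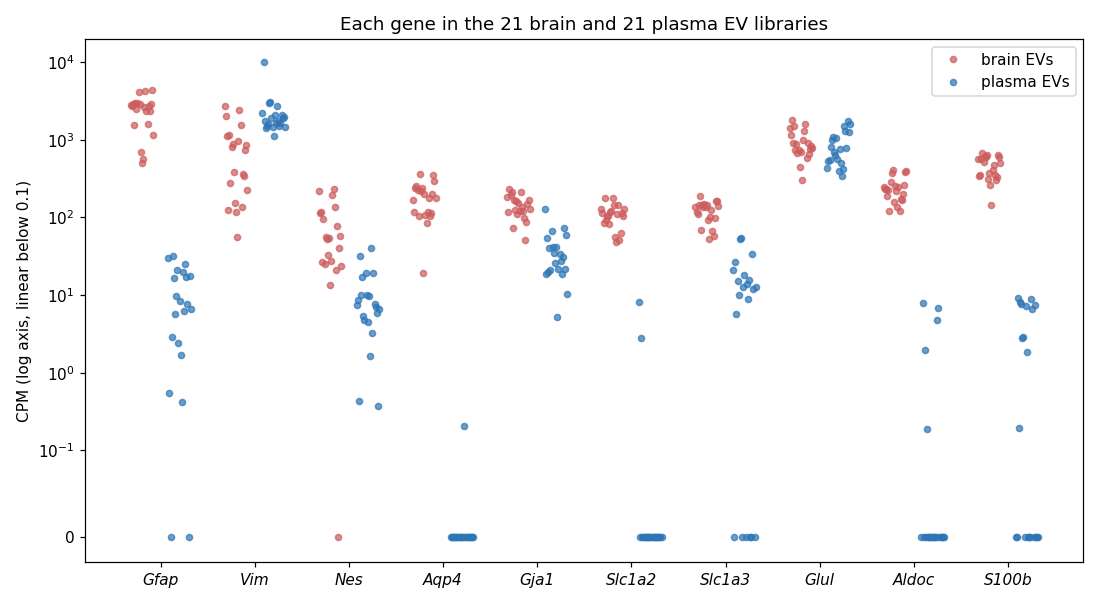
CPM of each member in the 21 brain and the 21 plasma EV libraries, a point for each library, on a log axis that is linear below 0.1. CPM were normalized within each tissue, so brain and plasma points do not share a common scale. Gfap, Aqp4, Slc1a2, Aldoc and S100b lie higher in brain with no overlap, Vim lies mostly higher in plasma, and Glul spans a similar range in both.

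Whether brain and plasma levels moved together was tested over the 21 rats for the 5 members with a mean of at least 1 FPKM in both, as part of 3369 genes with 100000 permutations each. On log2(FPKM + 1), the main scale, no gene passed at an adjusted p under 0.05 (0%), and 189 had an unadjusted p under 0.05. On log2(CPM + 1) 2 genes passed, neither of them a member. For Gfap Pearson's r was 0.26 (permutation p = 0.260, adjusted p = 0.916) and Spearman's rho was 0.27 (permutation p = 0.240, adjusted p = 0.921), and r without the 2 rats farthest from the brain median was 0.13. For Vim r was 0.56 (permutation p = 0.00428, adjusted p = 0.734) and rho 0.54 (permutation p = 0.0125, adjusted p = 0.876), with r of 0.68 without the 2 farthest rats and of 0.24 (permutation p = 0.300) with group means removed. For Slc1a3, Glul and Gja1 r was 0.30, 0.14 and 0.35, with adjusted p of 0.8997, 0.934 and 0.8997 from the same permutation test. For Glul r was -0.28 with group means removed and -0.32 on log2(CPM + 1). Over the 12 rats without hNSCs r was 0.68 for Gja1 (permutation p = 0.0145, adjusted p = 0.531) and 0.61 for Slc1a3 (permutation p = 0.0363, adjusted p = 0.608), and that of Slc1a3 rested on 2 rats, since it was -0.06 without the 2 farthest.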

How the data were processed

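The authors extracted RNA from plasma EVs (size exclusion chromatography) and brain EVs, built stranded total RNA libraries (SMARTer chemistry) for Illumina paired-end sequencing, aligned them to Rnor_6.0 with Bowtie2, and deposited raw counts and FPKM per gene for all 42 mRNA libraries. Counting and strand settings are not given in the sources used here. The deposited FPKM values divide by all reads, including 7855 unannotated new genes. The microRNA libraries were not used here.

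The 10 members and 17 other gene lists were chosen with earlier results of these data known. Counts of annotated genes were filtered with filterByExpr, TMM-normalized and tested in edgeR 4.0.16 (R 4.3.3), 1 quasi-likelihood fit of 7 groups per tissue and 1 of 14 groups for both. CPM are from the factors of the fit per tissue, and the averages of brain beside plasma from those of the fit of both. TPM were computed from the deposited FPKM over annotated genes. Calls needed an adjusted p under 0.05 and over 1.5-fold. Named list genes were up to 4 calls per list whose groups did not overlap. Aldh1l1, Sox9, Stat3 and Itgb2 lie outside this rule and were named after their values were seen. Scripts were tested on simulated data. Alternatives included limma 3.58.1, DESeq2 1.42.0, other scalings and left-out libraries. Comparisons of hNSCs with healthy rats, the Gfap to Slc1a2 ratio, the difference of stroke effects between tissues and left-out libraries for list genes were added after the data were examined. No 2 libraries held identical counts. Permutations ran in Python 3.11.15.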

Additional observations from a re-analysis of the deposited data

Results flagged for a closer look

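The stroke effect at 4 d was also compared between tissues, as the difference between control and healthy rats in brain minus that in plasma, a test added after the data were examined. Slc1a2 was the member below the threshold (edgeR adjusted p = 0.0367), beside 0.159% of 16945 genes, but this p cannot tell whether the effect differs between the tissues. It was 121, 179 and 147 CPM in healthy and 127, 115 and 85.8 CPM in control 4 d brain EVs. In plasma it had 0 counts in each healthy library, and 167, 0 and 84 counts in the control 4 d libraries. The gene did not pass the plasma filter and entered through its brain counts, the p rests on 2 plasma libraries set against a group at 0, and no fold is given. For Gfap the difference between the tissues was 0.97 ± 1.75 on the log2 scale (adjusted p = 1.00), an error too wide to tell the tissues apart.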

How the results depend on the processing

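All 7 brain calls of members kept direction and side of the threshold with RLE factors, no count filter, unannotated genes kept, hemoglobin genes left out, no fold limit, the replicate number as a block (7 of 7), and DESeq2. The replicate numbers did not pair the rats (median correlation of same-numbered libraries -0.01 in brain and plasma), and the block, that of the rat included, changed no call of a member. For brain and plasma libraries labeled as the same rat the median correlation was 0.009, beside 0.0003 for other numbers. This difference is too small to show the pairing of brain and plasma. Over all genes, the calls of control against healthy rats at 4, 10 and 31 d and over all days (125, 83, 1 and 27) were 180, 53, 1 and 46 with the block, 846, 613, 176 and 695 with DESeq2, 254, 0, 8273 and 458 on log2(FPKM + 1), 490, 0, 11741 and 1047 on log2(FPKM + 0.1), and 540, 0, 3 and 64 with only the groups compared. At 10 d, at 31 d and over all days they were 28, 29 and 74 on log2(TPM + 1) and 44, 22 and 41 with unannotated genes kept. With no count filter they were 6 at 31 d and 79 over all days, and without hemoglobin genes 50 at 10 d. Members called for control 10 d against healthy (1) were 3 with DESeq2 and 0 with limma on log2(FPKM + 1), log2(FPKM + 0.1) or log2(TPM + 1) and with only the groups compared. At 31 d (1) they were 2 with DESeq2 and 10 on either FPKM scale, where the median of all genes moved by 0.69 against 0.37 on CPM. Over all days (2) they were 4 and 6 on log2(FPKM + 1) and log2(FPKM + 0.1). Between control days (0) the calls summed to 13 and 10 on those scales and 2 with only the groups compared. With 1 library left out the counts ranged from 0 to 3 at 4 d, 0 to 3 at 10 d, 0 to 1 at 31 d and 0 to 3 over all days. In plasma, where no member was called, DESeq2 called 1 at 4 d, 1 at 10 d, 2 for hNSCs at 31 d, 1 for hNSCs over all days, 2 between control days and 2 for the hNSCs effect between days. Of the 9 members called between brain and plasma, 6 kept the call on log2(FPKM + 1), which Nes and Slc1a3 lost, and 7 on log2(FPKM + 0.1), which Nes lost. The difference of Gja1 reversed to -0.29 and -0.47 on log2(FPKM + 1) and log2(FPKM + 0.1). The cause of these changes was not tested. Annotated depth limits the brain values, since a gene at 0 may be at up to 5.27 CPM, before the TMM factors, in the shallowest library.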

Other observations

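Mbp, which encodes myelin basic protein of oligodendrocytes, was lower in brain EVs of control 31 d rats than of control 4 d rats (log2 -1.91 ± 0.40, edgeR adjusted p = 0.0435) and control 10 d rats (-2.40 ± 0.41, adjusted p = 0.0171). The summed level of 8 oligodendrocyte genes was 4189 to 6547 CPM in control 4 d, 2993 to 12678 CPM in control 10 d, 1935 to 2284 CPM in control 31 d and 2741 to 3192 CPM in healthy libraries.

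For hNSCs against control rats over all days in brain EVs, 12 of the 13 gliosis signaling genes were below 0, with a median log2 difference of -0.27, and 8 of 9 neuron markers were above 0, with a median of 0.19, beside -0.20 over all genes. None of these genes was called, and most of all genes tested were also below 0 in this comparison.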
